A study of Mus musculus with 6 samples.

Results

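The genes described are 10 members of the extracellular nucleotide and adenosine system, of 23420 genes in the table: the P2Y receptor genes P2ry1, P2ry2, P2ry4, P2ry6 and P2ry14, the P2X receptor genes P2rx4 and P2rx7, the ectonucleotidase genes Entpd1 and Nt5e, and the adenosine receptor gene Adora2b. They were chosen by name, as receptors and enzymes of this family, and not by a threshold on their values. Expression was measured by RNA sequencing of tuft cells sorted from the ileum in 6 libraries that form 1 group, each labelled as a mouse replicate of Gfi1b-eGFP/+ animals on the C57BL/6J background. These animals carry a green fluorescent reporter in the Gfi1b locus, a transcription factor gene active in tuft cells, and the sort took EpCam-positive cells with the reporter and without CD45. The animals had no treatment in the labels, which give neither age nor sex. There is no control group and no other cell type in the table, so the comparisons are between genes within a library.

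ATP that leaves a cell acts as a local signal. P2X receptors are cation channels opened by ATP, while P2Y receptors are G protein-coupled receptors for ATP, ADP, UTP, UDP or UDP-sugars. Ectonucleotidases on the cell surface cut ATP and ADP to AMP and then to adenosine, which acts on receptors of its own. In the gut epithelium, nucleotides raise intracellular calcium and drive ion secretion, and in taste buds ATP carries the signal from taste cells to the nerve.

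Values are TPM, the relative abundance of a gene's transcripts, which are corrected for transcript length and can therefore be compared between genes where reads cover the whole transcript, as in the preparation that the methods describe. The labels also name a 3' polyA and a droplet preparation, and with reads from transcript ends the correction would lower long transcripts relative to short ones. TPM keeps no sequencing depth, so library depth is unknown, and a gene listed at 0 has no upper limit. Between 13044 and 13308 genes per library were listed above 0. Of 13 tuft cell marker genes found, all were above 0 in every library, among them Trpm5 at 1141 TPM and Dclk1 at 628 TPM on average, and the summed TPM of the list was 11302.5, 10270.2, 6807.12, 7721.18, 6739.49 and 6760.61 in replicates 1 to 6. The libraries did not form an even set. Gm20594 was between 15587.9 and 21282.9 TPM in replicates 1 to 3 and between 51804.5 and 56441 TPM in replicates 4 to 6, and no label explains the difference. The ribosomal RNA precursor Rn45s took between 23.1% and 32.6% of the TPM, which lowers all other values by a share that differs between libraries. Because the samples are bulk RNA, fewer cells that express a gene and less of its RNA per cell cannot be told apart.

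Among the 10 members, P2rx4 was the most abundant in each of the 6 libraries, and it took 78.4% ± 11.4 (SD, n = 6) of their summed TPM. Only P2rx4 and P2ry1 were listed above 0 in all libraries, 2 of 10 members, whereas 47.2% of all genes in the table were. Without replicate 1, in which P2ry2 and P2ry4 are listed at 0, the count was 4. A mean of at least 1 TPM was reached by 6 of the 10 members, compared with 51.4% of all genes. The median of the members' mean levels was 1.53 TPM, that of all genes was 1.24 TPM, and that of the 15707 genes above 0 in any library was 7.67 TPM. Adora2b was listed at 0 in every library.

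The P2Y receptors were low. P2ry1, a receptor for ADP, was 3.88, 7.43, 10.44, 2.74, 1.82 and 3.38 TPM in replicates 1 to 6, a mean of 4.95 ± 3.30 (SD, n = 6). Replicates 2 and 3 were the highest, and each of replicates 1 to 3 was above each of replicates 4 to 6. Among the genes listed above 0 in a library, P2ry1 stood between the 19.3 and the 48.0 percentile, with a median of 27.9.

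P2ry2, a receptor for ATP and UTP, was 0, 0.36, 0.29, 2.86, 6.12 and 4.79 TPM in replicates 1 to 6. Its values were all below 1 TPM in replicates 1 to 3 and all above it in replicates 4 to 6, so that the sets did not overlap and the order was opposite to that of P2ry1. The neighbouring gene P2ry6, whose product responds to UDP, was 2.37, 0, 8.28, 4.14, 0.34 and 2.30 TPM. For P2ry6 the high values of replicates 3 and 4 and the low values of replicates 2 and 5 crossed the sets of libraries. Its mean of 2.905 ± 3.04 TPM (SD, n = 6) was 1.83 TPM without replicate 3.

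P2ry4, whose product responds to UTP like that of P2ry2, was 0, 0.63, 1.77, 1.59, 1.56 and 1.38 TPM in replicates 1 to 6. It was low but even in replicates 3 to 6 and lower in replicates 1 and 2. P2ry14, a receptor for UDP-glucose, was 0.25 TPM in replicate 2 and listed at 0 in the other libraries. The summed TPM of the 5 P2Y genes was between 6.25 TPM in replicate 1 and 20.78 TPM in replicate 3, and in replicate 3 P2ry1 and P2ry6 made up most of it.

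The P2X members held the highest and one of the lower mean levels of the 10 members. P2rx4, which encodes an ATP-gated cation channel found in many tissues, was 72.06, 75.59, 85.03, 64.57, 21.38 and 42.95 TPM in replicates 1 to 6, a mean of 60.3 ± 23.7 (SD, n = 6). Replicates 1 to 3 were all above replicates 4 to 6, and the highest value, in replicate 3, was 3.98 times the lowest, in replicate 5. P2rx4 stood between the 69.1 and the 89.6 percentile of genes above 0, with a median of 88.2. Its share of the members' summed TPM was lowest, at 57.8%, in replicate 5 and highest, at 89.1%, in replicate 1.

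P2rx7 encodes a channel that needs high concentrations of ATP and is best known from macrophages and other immune cells. It was 2.51, 1.19, 0.07, 1.92, 0 and 0 TPM in replicates 1 to 6. Replicates 1, 2 and 4 were above 1 TPM, and the others were at or near 0, so the values did not follow the sets of libraries.

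The ectonucleotidase members were at or near 0 in replicates 1 to 3. Entpd1, or CD39, which cuts ATP and ADP to AMP, was 0.32 TPM in replicate 6 and listed at 0 in the other libraries. Nt5e, or CD73, which cuts AMP to adenosine, was 0.06, 0, 0, 4.07, 5.75 and 1.59 TPM in replicates 1 to 6. Each of replicates 4 to 6 was above each of replicates 1 to 3 for Nt5e, and its mean of 1.91 ± 2.46 TPM (SD, n = 6) was 1.144 TPM without replicate 5. Adora2b, the low-affinity adenosine receptor of many epithelia, was listed at 0 in all 6 libraries.

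**Figure D1:**
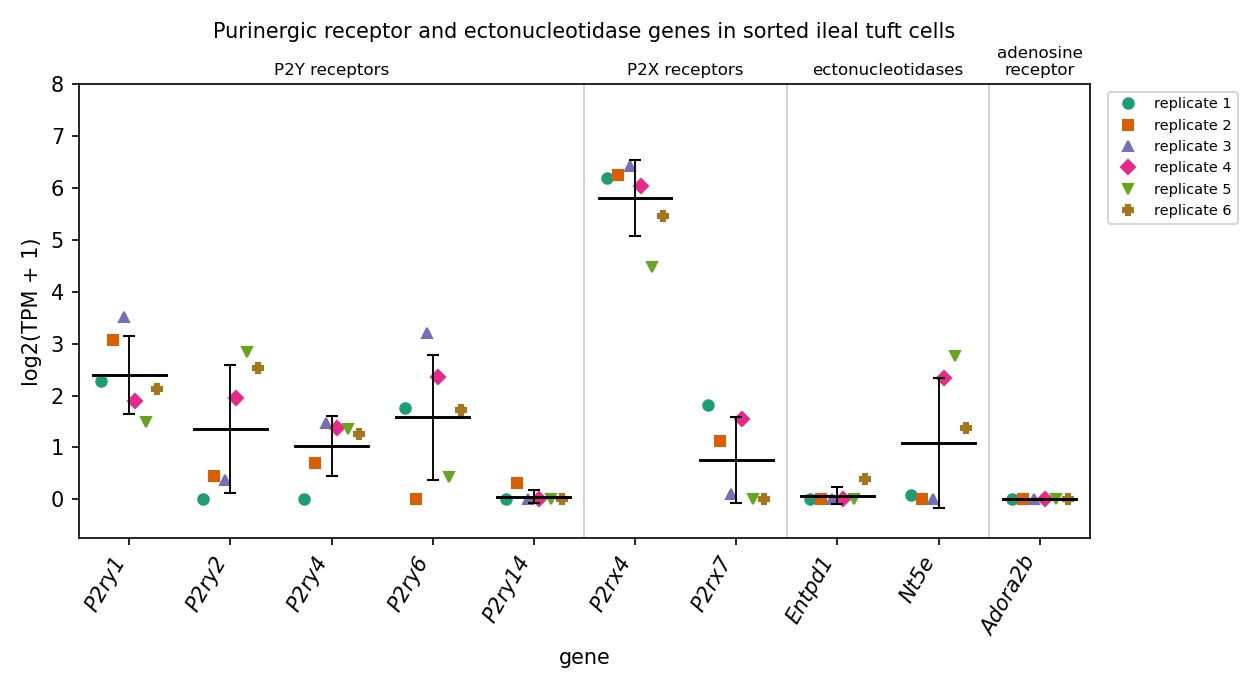
Expression of the 10 members as log2(TPM + 1) in each of the 6 libraries, with a symbol for each replicate, grouped by role; horizontal lines are means and bars are SD (n = 6). P2rx4 lies above all other members in every library, with a mean of 5.81 on this scale, P2ry1 follows with a mean of 2.40, and P2ry14, Entpd1 and Adora2b lie at or near 0.

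Of the 9 members listed above 0 in any library, 4 had no overlap between replicates 1 to 3 and replicates 4 to 6, compared with 13.6% of all genes above 0 in any library. P2ry1 and P2rx4 were lower in replicates 4 to 6, and P2ry2 and Nt5e were higher there. The same 4 genes had no overlap after rescaling by median-of-ratios factors and after rescaling without Rn45s. These sets were formed from Gm20594 after the data were seen and are not groups of the study, so no test was made between them.

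Marker genes of other cells also differed between libraries. Of 14 T cell and intraepithelial lymphocyte genes 11 were found and 9 were above 0 in every library, and their summed TPM was 50.22, 120.87, 99.33, 136.87, 397.13 and 433.4 in replicates 1 to 6, led by Ccl5 at 76.2 TPM on average. That sum was highest in replicates 5 and 6, where P2ry2 was also highest and P2rx4 lowest. Ccl5, Gzma, Gzmb and Nkg7 were each highest in replicates 5 and 6, Gzma at 140.67 and 157.73 TPM and Nkg7 at 29.86 and 39.97 TPM. Cd7 was highest in replicates 4 and 5 and Itgae in replicates 1 and 6, and Xcl1 was above 0 in replicate 3 alone. The defining T cell genes did not share an order of libraries. Cd3g was 0, 10.53, 2.51, 4.25, 13.12 and 11.3 TPM in replicates 1 to 6, highest in replicates 5 and 6 like the sum, whereas Cd3d was 3.85, 2.21, 1.18, 4.16, 0.98 and 1.18 TPM, highest in replicates 1 and 4. Cd3e was 1.52 TPM in replicate 5 and highest, at 11.63 TPM, in replicate 6, while Cd8a reached 8.42 TPM in replicate 5, its highest value, but only 1.03 TPM in replicate 6. The 10 myeloid genes summed to 50.87, 55.8, 201.56, 117.51, 180.84 and 264.62 TPM, led by H2-Aa at 104 TPM, with 8 of 10 above 0 in every library. H2-Aa was 20.78, 14.95, 136.68, 79.95, 150.88 and 222.48 TPM and made up most of the sum in replicates 3 to 6, so the sum does not describe the other genes. Lyz2 was 9.06, 5.57, 4.33, 0.91, 0.92 and 4.16 TPM in replicates 1 to 6, with each of replicates 1 to 3 above each of replicates 4 to 6. Cd68 was between 0.94 and 4.78 TPM, while Csf1r was above 0 in replicates 2, 3 and 6 and Emr1 in replicate 2 alone. For B and plasma cells, Ms4a1 was listed at 0 in all libraries, and Igj, a plasma cell gene, was the most abundant, at 38.22 TPM in replicate 5. In the list for stroma and endothelium, Col1a2, Cdh5 and Kdr were listed at 0 throughout, while Dcn reached 59.41 TPM in replicate 5 alone. The 6 mast cell genes summed to 136 ± 23.0 TPM (SD, n = 6), most of it from Kit at 130 TPM, so the sum does not describe the other genes. Only Kit, 1 of the 6, was above 0 in every library. Cpa3 and Fcer1a were above 0 in replicate 4 alone and Mcpt2 in replicate 5 alone. Mcpt1 was listed at 0 in replicates 1 and 6, and Ms4a2 in all libraries.

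Epithelial marker lists were present in every library. The 7 Paneth cell genes summed to 7529, 4089.47, 4455.24, 26976.2, 16356 and 8724.24 TPM in replicates 1 to 6, led by Defa24, and were highest in replicates 4 to 6. The 7 goblet cell genes, led by Zg16, summed to 995.5, 778.43, 1996.34, 1856.99, 2407.85 and 4318.46 TPM. The 9 enterocyte genes, led by Fabp6, summed to 3816.81, 2766.32, 2830.99, 6155.81, 4366.57 and 3845.7 TPM. The 9 enteroendocrine genes, of which 3 were above 0 in every library, summed to 456 ± 51.9 TPM (SD, n = 6). Most of it came from Sct at 384 TPM, so the sum does not describe the other genes. Chga, Chgb and Tph1 were highest in replicate 5, at 40.39, 59.62 and 11.03 TPM. Neurod1, Gcg and Cck were highest in replicate 3, Pyy and Sct in replicate 2 and Sst in replicate 4. The 6 stem cell genes, led by Olfm4, summed to 625 ± 190 TPM (SD, n = 6). The part of these other cells in the levels of P2ry2, Nt5e or any other member was not tested.

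The order of the members was then compared within libraries. Differences in log2(TPM + 1) were tested by flipping their signs in every combination, a two-sided exact permutation test. None of the 45 pairs passed the adjusted threshold of 0.05 in this exact sign-flip test, and 14 had an unadjusted p of 0.03125, the smallest that 6 libraries allow, with an adjusted p of 0.1004. At that smallest p, 29 of the 45 pairs would have to reach it for any to pass, so the count of 0 says little about the differences themselves. By an exact Mann-Whitney test, which does not pair values within a library, 22 of the 45 pairs had an adjusted p under 0.05 and 23 an unadjusted one. Of the 22 pairs, 14 included Adora2b, P2ry14 or Entpd1, so their outcome follows largely from the other gene being above 0. P2rx4 was above each of the other 9 members in 6 of 6 libraries, and all 9 of these pairs were among the 14. The difference from P2ry1, the next in order, was 3.41 ± 0.50 (SD, n = 6) on the log2(TPM + 1) scale, and P2rx4 had between 8.14 and 23.6 times the TPM of P2ry1. The difference between P2rx4 and P2rx7 was 5.04 ± 0.76 (SD, n = 6) on the same scale. Its size depends on the pseudocount, since P2rx7 is listed at 0 in 2 libraries, and it was 6.85 with a pseudocount of 0.1 and 8.18 with 0.01. P2ry1 was above P2ry4, P2rx7, Entpd1, P2ry14 and Adora2b in 6 of 6 libraries, the other 5 pairs of the 14. For P2rx4 and P2ry1 against Adora2b, which is listed at 0 throughout, the outcome follows from the values above 0 alone.

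Below P2rx4, neighbours in the order of mean levels did not differ beyond their spread. P2ry1 was above P2ry6 in 5 of 6 libraries, by 0.82 ± 1.21 on the log2(TPM + 1) scale (exact sign-flip p = 0.125, adjusted over 45 pairs 0.201). P2ry6 and P2ry2 differed by 0.22 ± 1.88 (exact p = 0.844, adjusted 0.904), each being the higher in 3 libraries. P2ry2 and Nt5e, with high values in the same libraries, differed by 0.26 ± 0.54 (exact p = 0.344, adjusted 0.442). For Nt5e against P2ry4, P2ry4 against P2rx7, P2rx7 against Entpd1, Entpd1 against P2ry14 and P2ry14 against Adora2b, the exact unadjusted p was at least 0.1875.

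Sucnr1, the succinate receptor gene, and Tas1r3, the taste receptor subunit gene, gave a scale for these levels, since both belong to the signals that the study follows in tuft cells. Sucnr1 was 577.27, 547.34, 285.82, 425.86, 295.37 and 261.12 TPM in replicates 1 to 6, and Tas1r3 was 5.74, 10.63, 0.60, 5.74, 3.74 and 2 TPM. Of 20 comparisons of a member with either gene, 15 passed by the exact sign-flip permutation test, each with p = 0.03125 and an adjusted p of 0.0417. They include both comparisons of Adora2b, whose outcome is fixed because it is listed at 0 throughout. Those of P2ry14 and Entpd1, each listed above 0 in 1 library, follow largely from the other gene being above 0. The adjusted p depends on how many of the 20 comparisons reach the smallest p, and all 10 with Sucnr1 do. All 10 members were below Sucnr1 in 6 of 6 libraries. P2rx4 came nearest, with a log2(TPM + 1) difference of -2.76 ± 0.64 (SD, n = 6), and Sucnr1 had between 3.36 and 13.8 times its TPM.

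P2rx4 was above Tas1r3 in 6 of 6 libraries, by 3.55 ± 1.22 (SD, n = 6) on the log2(TPM + 1) scale, or between 5.72 and 142 times in TPM, the last in replicate 3, where Tas1r3 was lowest. P2rx7, P2ry14, Entpd1 and Adora2b were below Tas1r3 in 6 of 6 libraries, and for P2rx7 the difference was -1.49 ± 0.73 on that scale. P2ry1 and Tas1r3 differed by 0.14 ± 1.41 (exact permutation p = 0.906, adjusted over 20 comparisons 0.906), with P2ry1 higher in 2 of 6 libraries. That mean difference was -0.40 without replicate 3 and -0.35 within replicates 4 to 6, and 0.64 within replicates 1 to 3. P2ry2, P2ry4, P2ry6 and Nt5e had mean differences of -0.90, -1.23, -0.68 and -1.17 from Tas1r3, with exact unadjusted p between 0.09375 and 0.4375, and did not pass. By the exact Mann-Whitney test 16 of the 20 comparisons passed, and P2ry4 against Tas1r3 was among them (exact p = 0.0390, adjusted 0.0487).

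The rest of the family was described from lists of other receptors, ectoenzymes, release channels, nucleoside transporters and adenosine enzymes. Of 50 such genes 49 were found, 27 of them above 0 in all libraries, 34 with a mean of at least 1 TPM and 6 at 0 throughout, and the median of their mean levels was 4.835 TPM. Between replicates 1 to 3 and 4 to 6, 6 of the 43 listed above 0 in any library had no overlap, close to the 13.6% of all genes, with P2rx1, Alpi and Ada higher and Enpp3, Cd38 and Adk lower in replicates 4 to 6.

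P2rx1, another ATP-gated channel of the P2X family, was the only other receptor at the level of P2rx4. It was 43.47, 62.49, 50.19, 68.30, 67.88 and 105.35 TPM in replicates 1 to 6, a mean of 66.3 ± 21.6 (SD, n = 6). P2rx4 was the higher of the pair in replicates 1 to 3 and P2rx1 in replicates 4 to 6, with a ratio of P2rx1 to P2rx4 between 0.590 in replicate 3 and 3.17 in replicate 5. Their order therefore differed between the sets of libraries and was not tested. P2rx2, the channel subunit known from taste nerves, was 48.06, 13.98, 1.38, 10.44, 11.28 and 0.14 TPM, above P2rx1 in replicate 1 and near 0 in replicate 6. P2rx5 was 4.63 TPM in replicate 1 and 2.93 TPM in replicate 4 and at most 0.19 TPM elsewhere.

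Over the 20 P2X, P2Y and adenosine receptor genes found, the 7 P2X genes held 84.8% ± 3.11 (SD, n = 6) of the summed receptor TPM. The 9 P2Y genes held 7.84% ± 2.91 and the 4 adenosine receptor genes 7.35% ± 1.66. The shares of P2rx1 and P2rx4 were 40.5% ± 14.9 and 35.0% ± 12.2, so the share of the P2X class varied less between libraries than that of either gene. Among adenosine receptors, Adora1 was above 0 in every library, at 11.1 ± 3.31 TPM (SD, n = 6), in contrast to Adora2b. Its exons share 1162 bases with Mybph on the opposite strand. P2ry12 and P2ry13, receptors for ADP like P2ry1, were listed at 0 in all libraries. P2ry10 and P2ry10b were counted with the P2Y genes by name alone, not as receptors known to bind nucleotides. P2ry10 was above 0 in replicates 1, 3 and 5, the highest value being 5.38 TPM, and held 0.863% ± 1.31 (SD, n = 6) of the summed receptor TPM.

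Several other surface enzymes that act on nucleotides had higher means than Entpd1 and Nt5e. Entpd8, which like Entpd1 cuts ATP and ADP, was between 41.77 TPM in replicate 3 and 85.63 TPM in replicate 1, a mean of 60.2 ± 14.7 (SD, n = 6). Its exons share 50 bases with Noxa1 on the opposite strand. Entpd2, which prefers ATP, had a mean of 10.6 ± 5.36 TPM, and Enpp3, which cuts ATP to AMP, of 20.05 ± 10.0 TPM. Entpd3 was above 0 in all libraries but replicate 2, with a highest value of 9.07 TPM. Of enzymes that can release adenosine from AMP, the intestinal alkaline phosphatase gene Alpi, itself an enterocyte marker, had a mean of 31.7 ± 15.6 TPM and the acid phosphatase gene Acpp one of 14.97 ± 6.13 TPM, both above 0 in every library, whereas Alpl was listed at 0 throughout. Cd38, which cuts NAD, was the highest gene of the list at 115 ± 41.2 TPM. The Entpd genes of intracellular membranes, Entpd4, Entpd5, Entpd6 and Entpd7, were above 0 in every library, with means between 12.7 and 20.2 TPM.

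**Figure D2:**
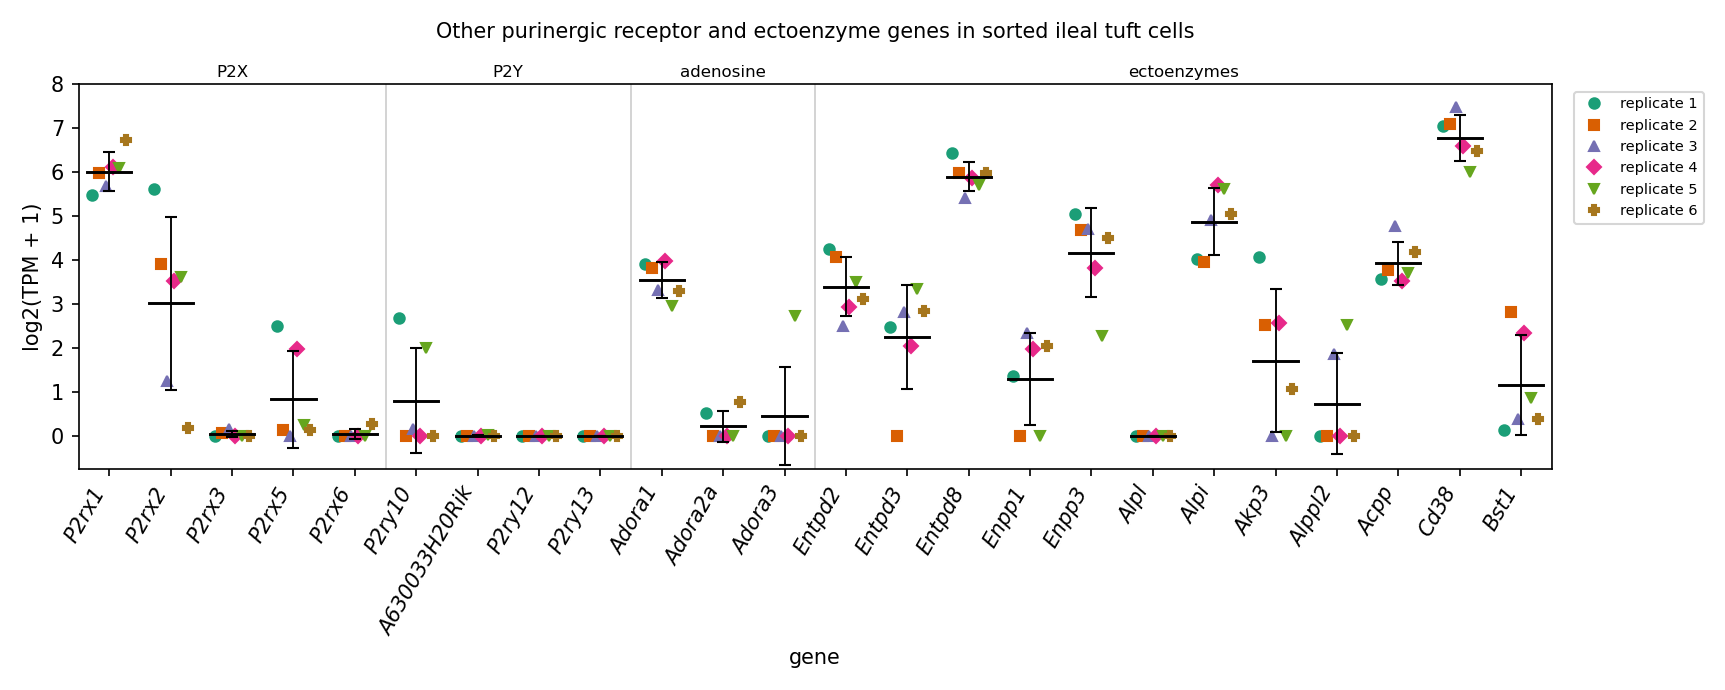
Expression of the other P2X, P2Y and adenosine receptor genes and of other ectoenzyme genes as log2(TPM + 1) in each of the 6 libraries, with a symbol for each replicate; horizontal lines are means and bars are SD (n = 6). P2rx1, Entpd8 and Cd38 have the highest means, at 6.02, 5.90 and 6.79 on this scale, while P2ry12, P2ry13 and Alpl lie at 0, and P2rx2 is spread widely. A630033H20Rik is the name of P2ry10b in the table.

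Genes for the release of ATP, the transport of nucleosides across membranes of any kind and the removal of adenosine gave sides of the system that the members do not cover. Panx1, a channel that lets ATP out of cells, was above 0 in every library, at 20.6 ± 7.08 TPM (SD, n = 6), as were the connexin genes Gjb1 and Gjb2, at 30.0 ± 13.2 and 20.4 ± 6.76 TPM. Calhm1, part of the ATP release channel of taste cells, was listed at 0 in all libraries, as were Panx3 and Gja1, and Slc17a9, which loads ATP into vesicles, had a mean of 1.29 TPM, or 0.846 TPM without replicate 3. The nucleoside transporter genes Slc29a3, Slc28a2 and Slc29a1 had means of 29.3 ± 10.4, 12.2 ± 9.04 and 11.8 ± 9.24 TPM. Of the enzymes that remove adenosine, Adk was at 30.2 ± 16.4 TPM, and Ada was 0.13 TPM in replicate 1 and 19.45 TPM in replicate 6.

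The positions of the members place some of them beside each other in the annotation of GRCm38, the assembly also named mm10. P2rx7 (chr5:122643911-122691432) and P2rx4 (chr5:122707544-122729738) lie on the forward strand, 16111 bases apart, and P2rx4 was the higher of the pair in every library. P2ry6 (chr7:100937630-100974649) and P2ry2 (chr7:100996568-101012866) lie on the reverse strand, 21918 bases apart, and had different high and low libraries. The others are P2ry1 (chr3:61002795-61008982), P2ry4 (chrX:100590154-100594869), P2ry14 (chr3:59113855-59153618), Entpd1 (chr19:40612366-40741602), Nt5e (chr9:88327197-88372092) and Adora2b (chr11:62248984-62266453). The exons of P2ry1 share 992 bases with Gm37035 on the opposite strand, and those of P2rx7 share 119 bases with Mir8115 on the same strand. P2ry14, P2ry6 and Entpd1 overlap the spans of other genes, P2ry14 that of Med12l, with 0 shared exon bases. Whether counting used the strand is not given in the sources used here, so reads from the bases that P2ry1 shares with Gm37035 cannot be told apart. Gm37035 itself is not among the genes in the table. The same limit holds for the bases that Adora1 shares with Mybph and Entpd8 with Noxa1, both of which are in the table.

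Promoter windows from RefSeq on GRCm38.p6 matched 9 of the 10 members, all but P2ry6. Each window has 300 bases around the gene's start, and the number of CG pairs, a motif that reads the same on both strands, had a median of 7 over all 32851 windows. The P2rx4 window has 18, a number reached by 29.7% of all windows. The P2rx7 window at the start of its annotated gene has 8. High CG numbers were not limited to the abundant member, since the windows of Adora2b and Nt5e have 27 and 23. The first 200 bases of the windows of P2rx4 (chr5:122707294-122707493, forward strand) and P2rx7 (chr5:122643677-122643876, forward strand) are shown because these adjacent genes of the same family differed widely in level, with CG pairs in capitals.
P2rx4: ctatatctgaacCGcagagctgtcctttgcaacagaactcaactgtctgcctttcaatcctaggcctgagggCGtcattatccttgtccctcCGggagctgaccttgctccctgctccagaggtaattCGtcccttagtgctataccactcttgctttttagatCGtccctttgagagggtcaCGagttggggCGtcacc
P2rx7: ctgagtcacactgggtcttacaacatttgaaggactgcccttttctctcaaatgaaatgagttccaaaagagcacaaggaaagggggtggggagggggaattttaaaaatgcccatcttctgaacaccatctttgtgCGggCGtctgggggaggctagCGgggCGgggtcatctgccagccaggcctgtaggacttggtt
In these stretches P2rx4 has 7 CG pairs and P2rx7 has 4. The pairs of P2rx7 lie together toward the end of the stretch, while those of P2rx4 are spread along it. No binding or methylation was measured here, so the sequences are a description only.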

How the data were processed

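RNA from ileal tuft cells of 6 libraries in 1 group was sequenced after a modified SMART-Seq2 preparation; the labels also name a 3' polyA and a droplet preparation, which the methods do not describe for these libraries. With Bowtie, the authors mapped reads to the mm10 transcriptome, and they deposited TPM values from RSEM, which divides reads of similar transcripts by estimated shares. TPM keeps no read number, so depth and its precision are unknown.

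Columns were matched to replicates by number, with 0 columns left over. The members and the gene lists were chosen with earlier results of these data known. All 10 members and the pathway genes at 0 throughout are named. Pathway genes averaging 1 TPM or more and the leading and defining genes of marker lists could be named, but not all of them are. Pathway genes left out of the description include Pnp, Dpp4 and Lrrc8a, with means of 32.6, 22.9 and 18.8 TPM. Other genes are named by choice after their values were seen. Members were compared with each other and with Sucnr1 and Tas1r3 by two-sided exact sign-flip permutation tests over 64 assignments of log2(TPM + 1) differences, with Benjamini-Hochberg adjustment over 45 pairs and 20 comparisons. The p-values measure the spread between these libraries. Alternatives were pseudocounts of 0.1 and 0.01, values under 0.1 TPM set to 0, the exact Mann-Whitney test over 924 assignments that the study names, median-of-ratios rescaling, rescaling without Rn45s, other detection thresholds and leaving out each library. The tests were checked on simulated data. Positions come from GENCODE on GRCm38, by symbol. The software was scipy 1.17.1, pandas 2.3.3 and numpy 2.4.6 in Python 3.11.15, with matplotlib 3.10.9.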

Additional observations from a re-analysis of the deposited data

Results flagged for a closer look

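In 6 of 44 genes screened on the TPM scale, the gap between the highest library and the next, as a ratio to the whole range, was above Dixon's critical value for 6 samples. For values from a normal distribution, about 2.2 would be flagged at 1 in 20. TPM values with many zeros do not follow one, so the 6 cannot be read as an excess over that number. For P2ry14 (0.25 TPM in replicate 2) and Entpd1 (0.32 TPM in replicate 6), the gap took the whole range, a ratio of 1, because the other libraries are listed at 0. P2rx2 was 48.06 TPM in replicate 1 and at most 13.98 TPM elsewhere, a gap of 0.711 of the range, and its mean of 14.2 TPM was 7.44 TPM without that library. Akp3, an alkaline phosphatase gene, was 15.8 TPM in replicate 1 and at most 4.89 TPM elsewhere (0.691 of the range), and its mean of 4.43 TPM was 2.16 TPM without it. Gjb1 was 55.06 TPM in replicate 3 and at most 32.31 TPM elsewhere (0.638), with a mean of 25.0 TPM without it. Slc28a2 was 29.6 TPM in replicate 4 and at most 14.34 TPM elsewhere (0.636), with a mean of 8.69 TPM without it. After median-of-ratios rescaling the ratios of P2rx2 and Akp3 were 0.730 and 0.664, still above the critical value, and those of Gjb1 and Slc28a2 were 0.525 and 0.580, below it. On the log2(TPM + 1) scale the ratios of P2rx2, Akp3, Gjb1 and Slc28a2 were 0.315, 0.371, 0.514 and 0.451, all below it, while that of Panx1, whose lowest value was 8.29 TPM in replicate 1, was 0.646, above it.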

How the results depend on the processing

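Of 192 recomputed values, 2 changed direction, those of P2ry1 against Tas1r3 given below. Sizes shifted more often. The mean of Nt5e was 1.144 TPM without replicate 5 against 1.91 TPM with all libraries, and that of P2ry6 was 1.83 TPM without replicate 3 against 2.905 TPM. The means of P2ry14 and Entpd1 were 0 without replicates 2 and 6, respectively. Some values could not change, such as the 8 means of Adora2b at 0. The number of member pairs past the adjusted threshold was 0 by the sign-flip test and 22 by the exact Mann-Whitney test, which does not pair values within a library and can reach smaller p-values with 6 libraries. The sign-flip count was also 0 under the other pseudocounts, the filter and both rescalings, which says nothing of stability, since 29 pairs at the smallest p are needed and 14 reached it. The number of members above 0 in every library was between 2 and 4 when each library was left out, the 4 without replicate 1, where P2ry2 and P2ry4 are listed at 0. The log2 difference between P2ry1 and Tas1r3 was between -0.40, without replicate 3, and 0.34 when each library was left out, and -0.35 within replicates 4 to 6 but 0.64 within replicates 1 to 3, settings chosen after the data were seen; the cause was not tested. The median percentile of P2ry1 was 27.9 among genes above 0 and 59.5 among all genes, since the latter include genes listed at 0. The log2 difference between P2rx4 and P2rx7 was 6.85 with a pseudocount of 0.1 and 8.18 with 0.01, against 5.04 with 1. The difference between P2rx4 and P2ry1 was between 3.26 and 3.51 when each library was left out. With 5 libraries the sign-flip test cannot pass the threshold, so those values have no test. Without read numbers, values near 0 TPM have no known precision.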
